A study of Mus musculus with 55 samples.

Results

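Transcripts of the neuronal splicing factors and of the heterogeneous nuclear ribonucleoproteins (hnRNP proteins) were followed in single pyramidal neurons, taken from the prefrontal cortex of mice. Members were chosen by symbol, as genes whose names begin with Rbfox, Nova, Elavl, Celf, Ptbp, Khdrbs or Srsf and a number, or with Hnrnp, without pseudogenes. This gave 52 of the 22800 gene symbols, namely 3 Rbfox, 2 Nova, 4 Elavl, 6 Celf, 3 Ptbp, 3 Khdrbs, 11 Srsf and 20 Hnrnp genes. Each library held the cytosol of 1 neuron, drawn into a patch pipette and made into a library from total RNA. By label the neurons are D1 or D2 cells, from mice with no knockout, called wild-type here, or from Fmr1-/y mice, called knockout. Fmr1 encodes FMRP, an RNA-binding protein whose loss models fragile X syndrome. The sources used here do not give the strain or how the D1 and D2 kinds were recognised. Compared were 15 wild-type D1 cells (28 to 34 days of age), 26 wild-type D2 cells (29 to 35 days), 6 knockout D1 cells (31 to 32 days) and 7 knockout D2 cells (32 days) that passed quality control. No animal is named for any cell. Each group was therefore treated as 1 sample, no test was made, and SDs describe the spread between cells.

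Splicing factors of these families bind short sequence elements in pre-mRNA and decide which alternative exons are kept. Rbfox, Nova, neuronal Elavl and Celf proteins shape the exons that set neurons apart, Ptbp1 represses such exons outside neurons and Ptbp2 in young ones, and Khdrbs proteins control exon choice in the synaptic neurexins. SR proteins (Srsf genes) mostly bind exonic enhancers and favour inclusion, while hnRNP proteins often oppose them and also carry mRNA to the cytosol. The pipette samples cytosol and the counts hold no exon usage, so that levels of the factors' mRNAs, not splicing, were measured.

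In the knockout cells no read of Fmr1 was found, in 0 of 6 D1 and 0 of 7 D2 cells, where 3 counts over the summed totals correspond to 0.0929 and 0.0712 CPM (a gene's reads scaled to a common total per cell). Among wild-type cells Fmr1 reads were found in 8 of 15 D1 and 13 of 26 D2 cells, so that a cell without a read need not lack the transcript. Total counts ranged from 260943 to 10673072 per cell. Mitochondrial transcripts took a median of 4.46%, 3.91%, 2.35% and 4.14% of the counts in the groups in the order given above. Cells also differed in how many genes had a read. A set of 20 cells had fewer than 4000 such genes, 6 of the 15 wild-type D1, 13 of the 26 wild-type D2 cells, none of the knockout D1 cells (0) and 1 of the knockout D2 cells. The other 34 are called gene-rich, and comparisons are given in all cells and in these. Of 7 general pyramidal markers fixed for the label, reads of 7 were found in each group. Intervals on shares of cells take the cells as independent draws and leave out differences between animals. Floors cover counting error only.

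How many members a cell held went with how many genes it held, which is what divides the 2 sets of cells. Gene-rich cells held reads of 35 to 52 of the 52 members (median 45), and the other cells of 11 to 30 (median 18.5). Within gene-rich cells single members were still missed, as Nova1 was in 18 and Ptbp1 in 16 of 34. In wild-type D1 cells the median was 41 members, in wild-type D2 cells 34.5, in knockout D1 cells 43.5 and in knockout D2 cells 45. The members took a median of 0.917%, 0.879%, 1.08% and 0.833% of all counts in the same order of groups. The grid of levels by cell shows that the dark, readless entries lie mostly in gene-poor cells and in whole columns.

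**Figure D1:**
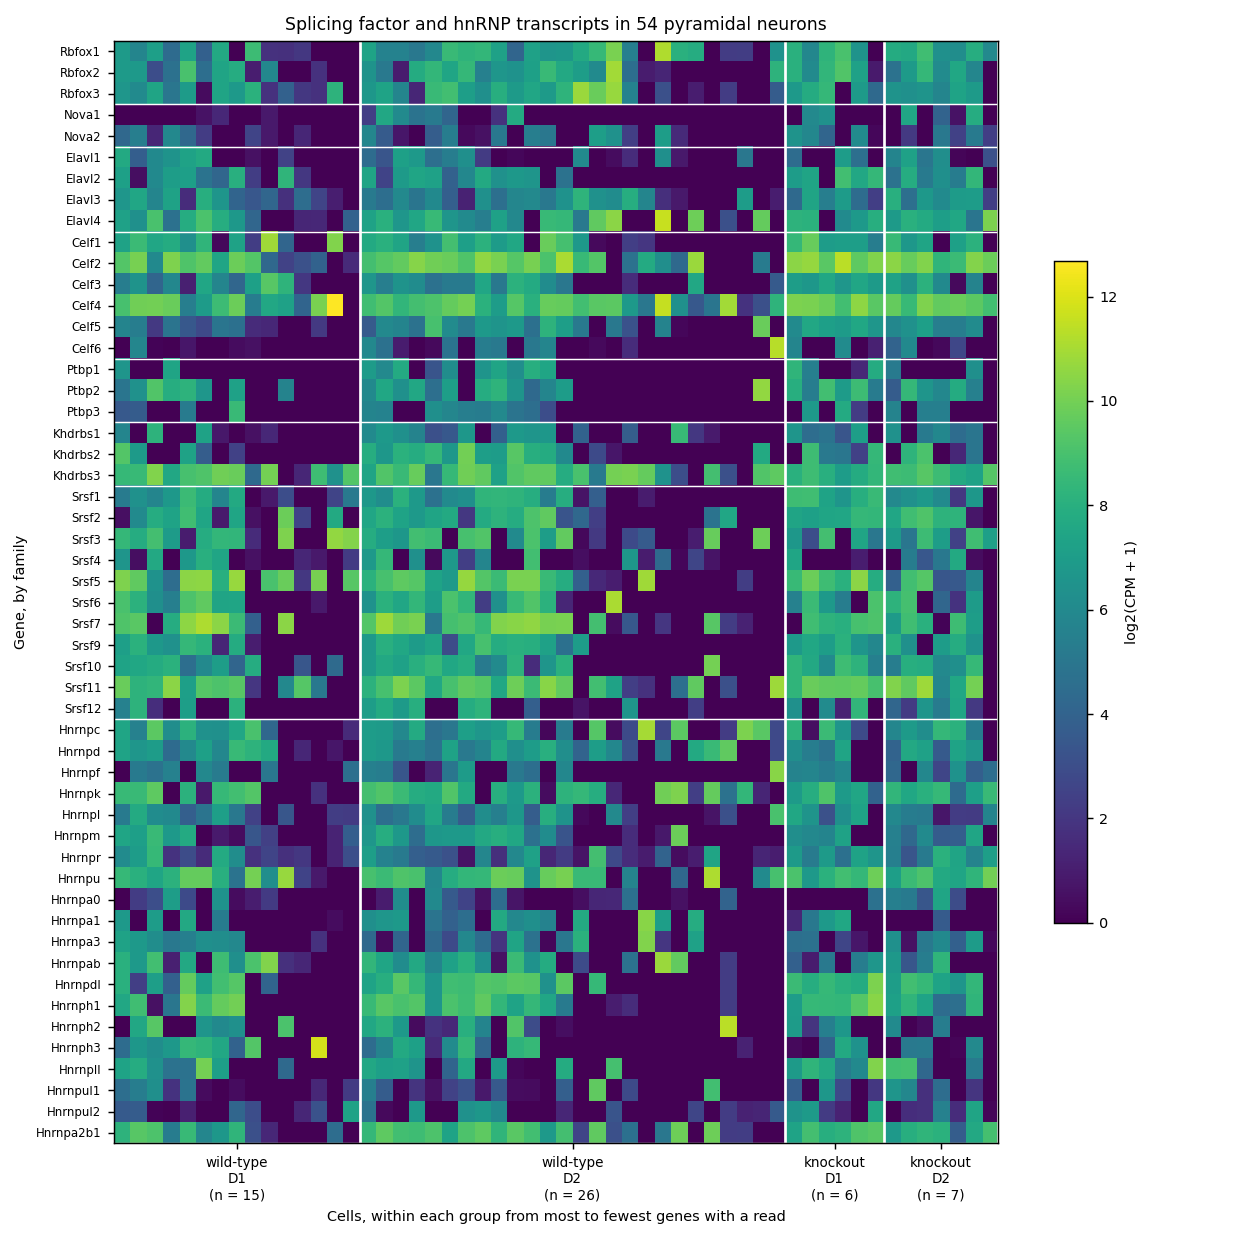
Level of each of the 52 genes (rows, by family) as log2(CPM + 1) in each of the 54 cells (columns, by group and, within a group, from most to fewest genes with a read). Readless entries crowd the right-hand columns of the wild-type groups, while Celf4 and Khdrbs3 stay bright in most cells.

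**Figure D2:**
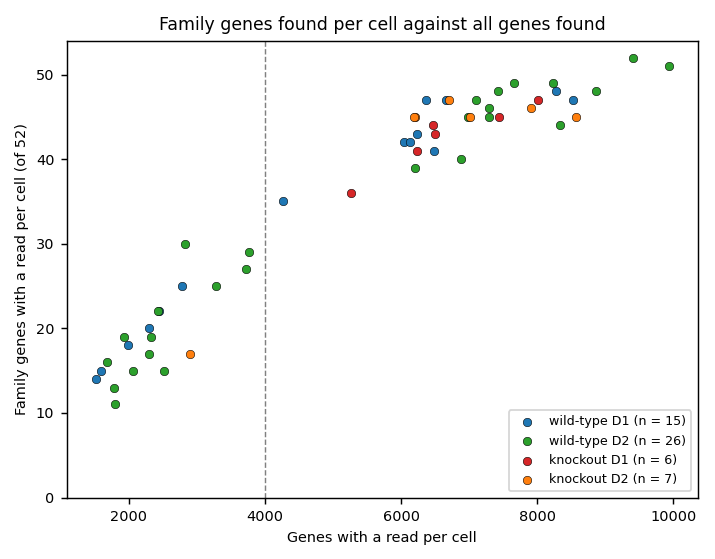
Number of the 52 genes with a read in each of the 54 cells (vertical axis) against all genes with a read in that cell (horizontal axis), coloured by group; the dashed line marks 4000 genes. Cells right of the line hold 35 to 52 of the family genes and cells left of it 11 to 30.

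Levels between genes were compared in wild-type cells as CPM per kilobase of merged exons. The SR protein Srsf7 had the highest mean, 151 ± 177 CPM per kilobase (SD, n = 41), followed by Khdrbs3 at 129 ± 102, Srsf5 at 122 ± 143, Celf4 at 78.5 ± 129 and Hnrnpab at 69.3 ± 127. The SDs are about as large as the means or larger, so that this order of neighbours lies within the spread between cells. At the lower end stood Nova1 at 1.56 ± 5.15, Nova2 at 2.16 ± 4.02, Hnrnpul2 at 2.18 ± 4.95 and Hnrnpr at 2.27 ± 4.48 CPM per kilobase. Hnrnpr was still found in 38 of 41 wild-type cells, as often as Khdrbs3, although its level per length was among the lowest (22199 bases of annotated exons).

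Some pairs of paralogs stood in the same order per length in most cells. Khdrbs3, the neuron-enriched member known as SLM2, exceeded Khdrbs1 (Sam68) in 50 of 54 cells and Khdrbs2 (SLM1) in 50. Celf4 exceeded Celf2 in 43 of 54 cells and Celf1 in 48. Elavl4, a neuronal Elavl gene, exceeded the widely expressed Elavl1 in 41, and Hnrnpa2b1 exceeded Hnrnpa1 in 41. These orders held in most cells of either genotype. Other pairs were less one-sided. Rbfox1 exceeded Rbfox3, the gene of the NeuN antigen, in 34 cells and was below it in 16. Nova2 exceeded Nova1 in 27 cells and was below it in 10. Ptbp2, which neurons switch to, exceeded Ptbp1, its counterpart of dividing cells, in only 19 cells and was below it in 14, with no read of either in 21. Ptbp1 shares 983 of 4740 exon bases with genes of the other strand, and no source used here says whether counting used strand, so reads of these genes may be split between them.

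Groups are compared by log2(CPM + 1) averaged over their cells. Given is the difference of these means minus the median of that difference over all measured genes (mean level of 1 CPM or more, with reads in 10% or more of the cells compared). A gene is called higher or lower when this relative difference is at least 1 log2 unit. All 52 members were measured in each comparison. Fewer cells with a transcript and less of it per cell both lower such a mean. The value understates differences of genes with few reads. Gene-rich cells are part of all cells, so that a call in both sets is not independent support. The share of all genes called in both sets was not computed.

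Between the wild-type kinds, a larger share of members than of all genes was lower in D1 cells, though not in summed counts. Higher in D1 cells were 7 of 52 (13.5%), where 12% of all 11059 measured genes were, and lower were 10 (19.2%), where 10.2% of all genes were. The members' median relative difference was nevertheless 0.04, with 26 of 52 above the median of all genes. In gene-rich cells 10 members were higher (19.2%, against 20.6% of all genes) and 14 lower (26.9%, against 21.1%), and in counts summed over each group 6 were higher (11.5%, against 19.1%) and 7 lower (13.5%, against 22%). The share higher in gene-rich cells is near the background and is not a result about the members, and called in both sets of cells were only 2 higher (Hnrnph3, Hnrnpll) and 8 lower (Celf5, Celf6, Hnrnpa1, Hnrnpa2b1, Khdrbs1, Khdrbs2, Nova1, Ptbp1).

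Celf5, a CELF protein of the nervous system that binds GU-rich RNA, was lower in D1 cells. Its lowest, median and highest levels were 0, 3.31 and 51.7 CPM in wild-type D1 cells and 0, 33.2 and 884 CPM in wild-type D2 cells. The groups overlapped, but all 9 gene-rich D1 cells lay below the median of the gene-rich D2 cells, and every gene-rich cell of both kinds had a read. The mean of log2(CPM + 1) was 2.61 ± 2.13 (SD, n = 15) against 4.22 ± 3.18 (n = 26), a relative difference of -1.47 in all and -1.77 in gene-rich cells. It kept the call under each of 18 alternatives, from -2.07 to -1.13. The direction was the same at 3 of the 4 ages with cells of both kinds (29, 30, 31 and 34 days).

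Khdrbs2 and Khdrbs1, STAR-family RNA-binding proteins, were both lower in D1 cells, and Khdrbs3 was not called (0.14). Khdrbs2 was found in 5 of 15 D1 neurons and 16 of 26 D2 neurons, and in gene-rich cells in 5 of 9 and 13 of 13. Its median in gene-rich cells was 4.46 CPM (lowest 0, highest 616) in D1 and 231 CPM (64.2 to 996) in D2 cells, with 8 of 9 D1 cells below the D2 median. The relative difference was -2.20, or -3.99 in gene-rich cells and -0.97 in summed counts, where a few cells with many reads weigh most. Khdrbs1 stood at -1.39 (-1.79 in gene-rich cells), moved to -2.17 without the cells of 29 days and turned to 0.21 in summed counts.

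Ptbp1 and Nova1 were rarely found in wild-type D1 cells. Reads of Ptbp1 were present in 2 of 15 D1 neurons (13.3%, exact Clopper-Pearson 95% interval 1.66% to 40.5%) and 10 of 26 D2 neurons (38.5%, 20.2% to 59.4%), with highest levels of 169 and 244 CPM. Its relative difference was -1.46, but -0.33 without the cells of 29 days and -2.25 without those of 30 days. Nova1 had reads in 3 of 15 D1 neurons, at no more than 1.63 CPM, and in 8 of 26 D2 neurons, at up to 214 CPM. Its relative difference was -1.20 (-2.35 in gene-rich cells) and -0.76 without the cells of 31 days. Celf6, another nervous-system CELF gene, stood at -1.32 (-1.60 in gene-rich cells), found in 5 of 15 and 12 of 26 cells, and at -0.66 without the cells of 29 days.

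Among hnRNP genes, Hnrnph3, whose protein binds runs of G, was the member with the highest relative difference in D1 cells. It was found in 10 of 15 D1 cells (0, 74.3 and 3719 CPM as lowest, median and highest) and in 11 of 26 D2 cells (0, 0 and 354 CPM), and in 9 of 9 against 10 of 13 gene-rich cells. The relative difference was 2.62 (2.57 in gene-rich cells). It fell to 1.59 without the cells of 30 days and had the opposite sign at 31 days (-0.76, 3 cells of each kind). Hnrnpll, a relative of Hnrnpl that binds CA-rich RNA, stood at 1.18 (1.60 in gene-rich cells), with 0, 18.9 and 1042 CPM in D1 and 0, 0 and 488 CPM in D2 cells. Without the cells of 31, 34 or 35 days it was 0.73, 0.92 and 0.99. Lower in D1 cells were Hnrnpa1 and Hnrnpa2b1, silencer-binding proteins that also accompany mRNA into the cytosol. Hnrnpa1 stood at -1.58 (-1.06 in gene-rich cells, -0.39 in summed counts), found in 5 of 15 and 14 of 26 cells, and up to 28.2% of its 50-base stretches recur in other annotated transcripts, mostly pseudogenes. Hnrnpa2b1 stood at -1.41 (-1.05 and -0.77), with medians of 39.6 and 330 CPM (highest 677 and 952).

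Some calls in all wild-type cells were absent in gene-rich cells. Srsf5 was higher in D1 cells at 2.33, with medians of 666 CPM (D1) and 142 CPM (D2), but stood at -0.57 in gene-rich cells. Srsf3 went from 1.60 to 0.20, Celf1 from 1.54 to -0.44, Elavl2 from 1.15 to 0.06 and Celf3 from 1.08 to -0.35. On the lower side Rbfox1 went from -2.05 to -0.44 and Hnrnpk from -1.56 to 0.42. Rbfox1 was found in 11 of 15 D1 cells (median 14 CPM, highest 407) and 23 of 26 D2 cells (median 99 CPM, highest 2288), and in gene-rich cells the medians were 118 and 102 CPM. Celf1 was 1.00, Celf3 0.52 and Elavl2 0.70 without the cells of 28 days. Celf3 was also 0.81 without those of 30 days, 1.68 without 31 days and 0.74 without 35 days, and Elavl2 0.88 without 35 days. Markers of microglia, 6 of 11 measured, were higher in D1 cells (8 of 11 in gene-rich cells). Their summed level ran from 0.319 to 10595 CPM (median 898) in D1 neurons and from 0.167 to 5971 CPM (median 588) in D2 neurons, with reads of all 12 in both groups. In gene-rich cells astrocyte markers were higher in 3 of 6 (2 higher and 1 lower of 7 in all cells; summed 8.61 to 12743 CPM in D1, 42.7 to 13297 CPM in D2 cells, none at 0). Red blood cell markers were higher in 3 of 4 in gene-rich cells and in 0 of 4 in all cells (summed 0 to 1211 and 0 to 345 CPM, none at 0). Their part in these differences was not tested.

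The other genes of the neuronal families were called in neither direction in all wild-type cells. Elavl1 (0.60) and Elavl3 (0.20) were past the threshold in gene-rich cells only, at 1.75 and 1.05, and Ptbp3 (-0.48) was at -1.23 there. Elavl4 (-0.81), Celf2 (-0.53), Celf4 (-0.01), Nova2 (-0.28), Ptbp2 (0.44), Rbfox2 (-0.76) and Rbfox3 (-0.28) were called in neither set of cells.

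**Figure D3:**
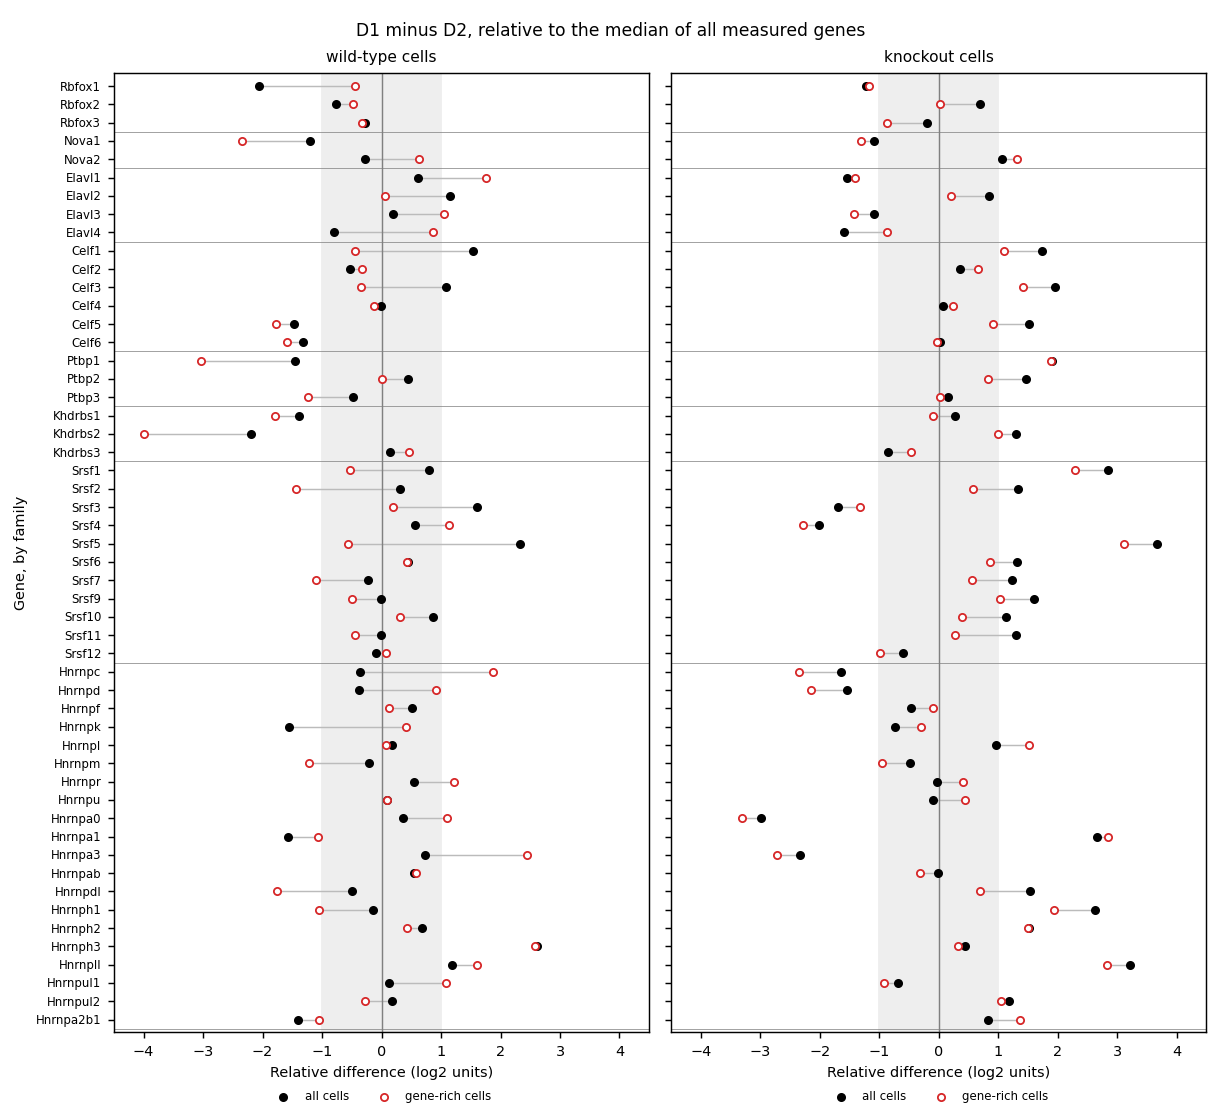
Relative difference in log2 units between D1 and D2 cells (positive: higher in D1) for each of the 52 genes, in wild-type (left) and knockout cells (right), with black points for all cells, open red points for gene-rich cells and the grey band within 1 log2 unit. Celf5 and Khdrbs2 lie left of the band in wild-type cells, and Srsf5, Srsf1 and Hnrnpll lie right of it in knockout cells.

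In D1 cells, more members were higher in the knockout than lower. Of 52 members 25 were higher (48.1%), where 27.9% of all 10792 measured genes were, and 9 were lower (17.3%), where 25% of all genes were. The median relative difference of the members was 0.91, on top of a shift of 0.98 in the median of all genes. In gene-rich cells 20 were higher (38.5%, against 25.2% of all genes) and 10 lower (19.2%, against 25.7%), and 18 of the higher and all 9 of the lower calls were shared with those in all cells. All knockout D1 cells are in both sets, so this sharing is not further support. In summed counts the excess was gone, with 12 higher (23.1%, against 25.9% of all genes) and 11 lower (21.2%, against 25.9%). Members also have more reads than most genes, with a median mean level of 116 CPM against 40.1 CPM. Among genes with a mean of at least 20 CPM, a setting chosen after seeing the data, 21 of 47 members were higher (44.7%, against 28.4% of such genes) and 8 lower (17%, against 28.7%).

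By share of members called, the Celf genes led this side, with 5 of 6 higher in all and 6 of 6 in gene-rich cells. Of all genes 27.9% were higher in all and 25.2% in gene-rich cells. By median relative difference Ptbp (1.92), Khdrbs (1.81) and Rbfox genes (1.48) exceeded the Celf genes (1.34). Celf5 had 0, 3.31 and 51.7 CPM (lowest, median, highest) in wild-type D1 cells and 66.8, 133 and 195 CPM in knockout D1 cells. Every knockout cell lay above every wild-type cell, which held for no other member and for 3 of all 10792 genes (0.0278%). The mean of log2(CPM + 1) was 7.00 ± 0.57 (SD, n = 6) against 2.61 ± 2.13 (n = 15), and the relative difference was 3.41 (2.91 in gene-rich cells, 2.41 to 4.40 over 16 alternatives). Up to 7.63% of its 50-base stretches recur in other transcripts, and 543 of its 6668 exon bases overlap a gene of the other strand.

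Celf2, a broadly expressed CELF protein, had 0, 172 and 1191 CPM in wild-type and 695, 1342 and 2621 CPM in knockout D1 cells, and 4 of 6 knockout cells exceeded the highest wild-type cell. Its relative difference was 2.89 (1.16 in gene-rich cells). Celf3, a brain CELF gene, ranged narrowly in knockout cells, with 102, 126 and 187 CPM, where wild-type cells had 0, 40.3 and 661 CPM. It stood at 1.59 (1.63 in gene-rich cells), and all 6 knockout cells lay above the wild-type median. Celf4 and Celf1 were near the threshold. Celf4 stood at 1.06 (1.35 in gene-rich cells), with 0.96 without knockout cell 1 and 0.08 in summed counts. Celf1 stood at 1.08 (1.13 in gene-rich cells), although only 2 of 6 knockout cells exceeded the wild-type median (40.2, 137 and 846 CPM against 0, 156 and 1851 CPM). It was 0.73 without knockout cell 4 and 0.18 in summed counts. Celf6 was not called in all cells (0.67) and stood at 1.17 in gene-rich cells.

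Both Ptbp1 and Ptbp2 were higher in knockout D1 cells, and Ptbp3 was not called (0.43). Ptbp2 was found in 8 of 15 wild-type (0, 29.8 and 591 CPM) and 6 of 6 knockout D1 cells (37.3, 185 and 455 CPM). This made a relative difference of 2.45, or 1.42 in gene-rich cells and 0.36 in summed counts. Ptbp1 had reads in 2 of 15 wild-type (0, 0 and 169 CPM) and 4 of 6 knockout cells (0, 22.5 and 314 CPM), and 2 knockout cells exceeded the highest wild-type cell. The relative difference of Ptbp1 was 1.92 (2.14 in gene-rich cells) and lay between 1.03 and 2.90 over 16 alternatives, at 1.21 without knockout cell 2 and 1.03 without cell 5, which held 314 and 221 CPM.

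Khdrbs1 and Khdrbs2 were higher too. Khdrbs2 stood at 2.00 (1.53 in gene-rich cells), with 0, 32.4 and 430 CPM in knockout cells against 0, 0 and 616 CPM in wild-type cells, and moved to 3.18 without knockout cell 2 and 1.21 without cell 5. Khdrbs1 stood at 1.81 (1.74), with 0, 24.9 and 136 CPM against 0, 0 and 293 CPM, and turned to -0.96 in summed counts. Khdrbs3, with 126, 255 and 426 CPM against 0, 426 and 1238 CPM, was not called (-0.53). None of its 6 knockout cells lay above the wild-type median.

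The Rbfox, Nova and Elavl genes were mixed. Rbfox1 stood at 1.48 and Rbfox2, which is expressed in many tissues, at 1.72, but both were below the threshold in gene-rich cells (0.40 and 0.80). Rbfox1 was 0.96 without knockout cell 3 and 2.65 without cell 5, the cell without a read of it (0, 180 and 525 CPM in knockout cells, against 0, 14 and 407 CPM). Rbfox2 was 2.77 without cell 5. Rbfox3 and Nova2 were not called (-0.09 and 0.93). Nova1, with 0, 0 and 83.2 CPM in knockout cells (reads in 2 of 6), was not called in all cells (0.88) but was past the threshold in gene-rich cells (1.69) and summed counts (4.69). Elavl2 was higher at 1.73 (1.17 in gene-rich cells), with 0, 180 and 459 CPM against 0, 17.2 and 314 CPM, and at 3.08 without knockout cell 6, which had no read. The widely expressed Elavl1 was lower at -1.11 (-1.85 in gene-rich cells). This rested on cells 4, 5 and 6, which had no read, since the value was -0.46, -0.66 and -0.53 without each of them, and it was -1.94 without cell 3. Elavl3 and Elavl4 were not called (-0.15 and 0.54).

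The hnRNP and SR genes went both ways. Of 20 Hnrnp genes 8 were higher and 6 lower, and 6 and 6 in gene-rich cells. Of 11 Srsf genes 5 were higher and 2 lower, and 2 and 3 in gene-rich cells. The shares over all genes were 27.9% higher and 25% lower, and 25.2% and 25.7% in gene-rich cells. Paralogs stood on opposite sides. Hnrnph1 was found in 8 of 15 wild-type (0, 0.468 and 1262 CPM) and 6 of 6 knockout D1 cells (127, 354 and 1361 CPM), a relative difference of 3.66 (1.82 in gene-rich cells, 0.58 in summed counts). Hnrnph3 was found in 10 of 15 wild-type (0, 74.3 and 3719 CPM) and 4 of 6 knockout cells (0, 7.65 and 209 CPM), a relative difference of -2.81 (-3.92 in gene-rich cells), with the groups overlapping in both genes. In gene-rich cells 5 of 6 knockout cells lay below the wild-type median for Hnrnph3, and for Hnrnph1 4 of 6 did although the mean was higher.

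Hnrnpa2b1 and Hnrnpa3 also stood on opposite sides. Hnrnpa2b1 had 0, 39.6 and 677 CPM in wild-type and 161, 384 and 658 CPM in knockout D1 cells, a relative difference of 2.81 (1.18 in gene-rich cells, 0.68 in summed counts). Hnrnpa3 had 0, 32.5 and 157 CPM in wild-type and 0, 3.02 and 25.3 CPM in knockout cells, and all 6 knockout cells lay below the wild-type median. The gene stood at -2.26 (-3.49 in gene-rich cells), and up to 27.1% of its 50-base stretches recur in other transcripts. Hnrnpa0, an AU-rich element binder, was found in 8 of 15 wild-type and 1 of 6 knockout D1 cells (16.7%, exact Clopper-Pearson 95% interval 0.421% to 64.1%), at 25.5 CPM in the latter. It stood at -1.88 (-1.91 in gene-rich cells).

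Hnrnpdl, a paralog of the mRNA decay factor Hnrnpd, stood at 3.49 (2.10 in gene-rich cells, 0.96 in summed counts), with 220, 311 and 1154 CPM in knockout against 0, 13.9 and 816 CPM in wild-type cells. Hnrnpd itself was lower at -1.75 (-2.97 in gene-rich cells). Hnrnpll stood at 2.90 (1.89), with 37.3, 158 and 1238 CPM against 0, 18.9 and 1042 CPM, and it kept the call under 16 alternatives. Hnrnpab, a CArG-box and mRNA-transport factor, was lower at -1.97 (-2.75), with 0, 23.9 and 99.3 CPM against 0, 78.8 and 1229 CPM, and stood at -1.21 without knockout cell 3. Of its exon bases, 809 of 2782 overlap a gene of the other strand.

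Srsf1, the founding SR protein, had 0, 38.2 and 392 CPM in wild-type and 96.0, 311 and 448 CPM in knockout D1 cells. The difference was 2.63 (1.85 in gene-rich cells, 1.58 to 3.62 over 16 alternatives), and all 6 knockout cells lay above the wild-type median. Srsf4 went the other way, found in 10 of 15 wild-type (0, 0.828 and 256 CPM) and 2 of 6 knockout cells (0, 0 and 173 CPM), with -2.37 (-2.90 in gene-rich cells). An antisense gene covers 1532 of its 3561 exon bases, and reads of the pair cannot be told apart without strand. The 2 Srsf genes highest per length were not called. Srsf5 had 0, 666 and 1708 CPM in wild-type and 232, 400 and 1396 CPM in knockout cells (0.54), and Srsf7 had 0, 231 and 2194 CPM against 0, 368 and 566 CPM (0.77).

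Markers of several other cell types were lower in knockout D1 cells, where 25% of all measured genes were lower (25.7% in gene-rich cells). Oligodendrocyte markers went both ways, with 1 higher and 1 lower of 4 measured (1 and 1 of 5 in gene-rich cells). Their summed level was 0 to 2433 CPM in knockout and 0 to 13691 CPM in wild-type D1 cells. Mog, Mag, Olig1 and Olig2 were at 0 in knockout cells and Olig2 in wild-type cells. Of 11 measured microglia markers 9 were lower (9 in gene-rich cells), with summed levels of 0.453 to 2487 CPM (median 439) in knockout and 0.319 to 10595 CPM (median 898) in wild-type D1 cells and no marker at 0. Interneuron markers were lower in 4 of 4 measured genes, and in 2 of 4 in gene-rich cells (summed 0 to 135 CPM against 0 to 481 CPM). Gad2, Slc32a1, Pvalb, Vip and Lhx6 were at 0 in knockout cells and Slc32a1 in wild-type cells. Astrocyte markers were lower in 4 of 7, and in 3 of 7 in gene-rich cells (summed 285 to 1452 CPM against 8.61 to 12743 CPM). Gfap and Aldh1l1 were at 0 in knockout cells. Red blood cell markers were lower in 4 of 4 in both sets of cells, being at 0 in all knockout D1 cells and reaching a sum of 1211 CPM in wild-type cells. Their part in the members' differences was not tested. The knockout D1 cells are of 31 and 32 days and only 3 of the wild-type D1 cells are of 31 days, so that age and genotype cannot be told apart here.

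**Figure D4:**
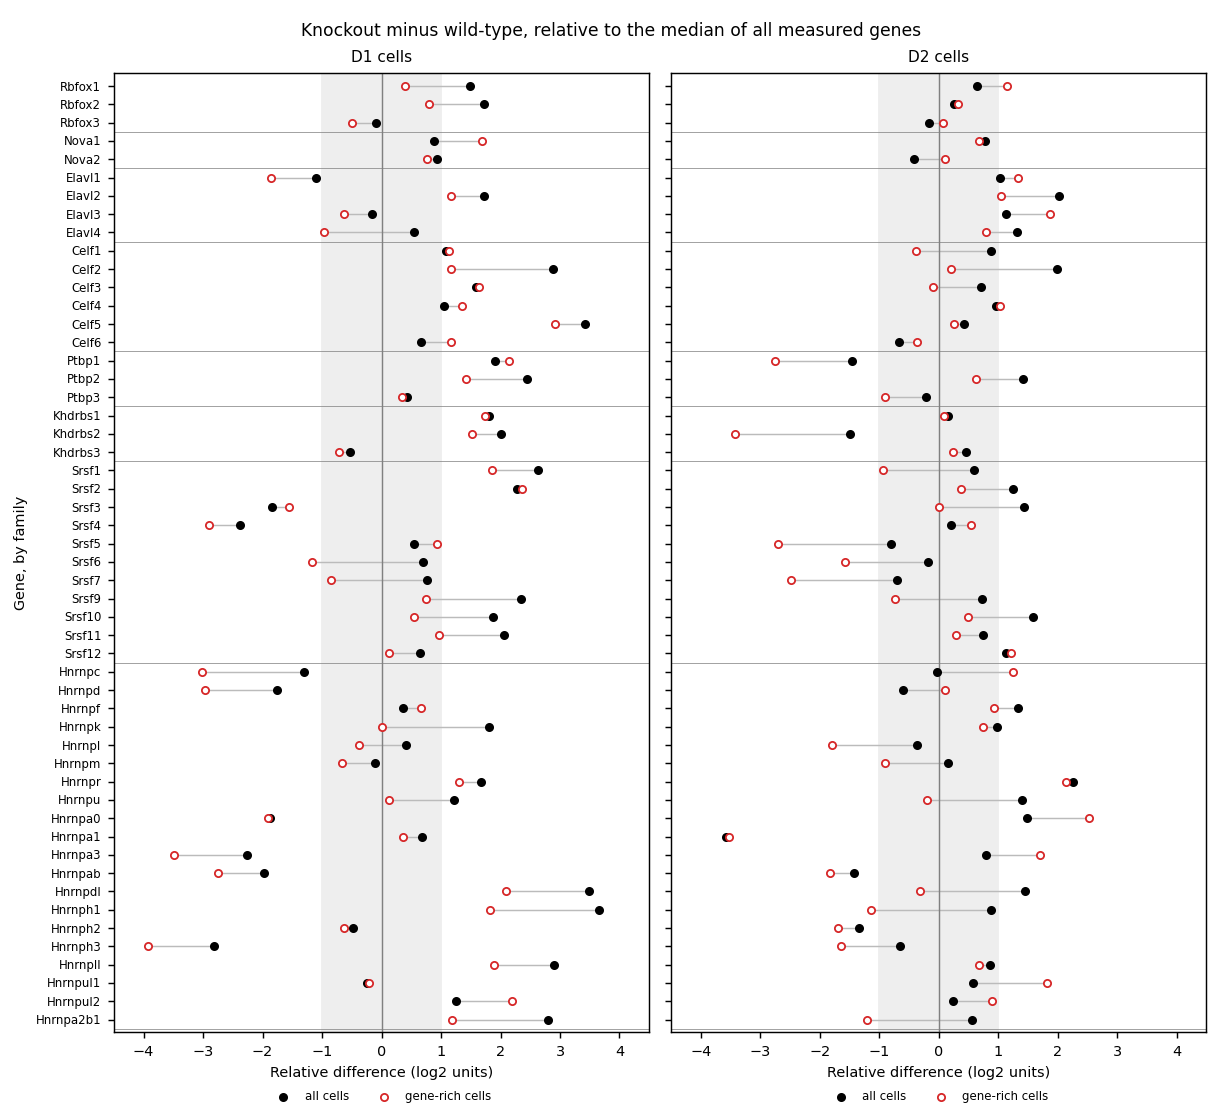
Relative difference in log2 units between knockout and wild-type cells (positive: higher in the knockout) for each of the 52 genes, in D1 (left) and D2 cells (right), with black points for all cells, open red points for gene-rich cells and the grey band within 1 log2 unit. In D1 cells 25 black points lie right of the band and 9 left of it, and in D2 cells 15 and 5.

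In D2 cells, too, more members were higher in the knockout than lower, though not in gene-rich cells. Higher in the knockout were 15 of 52 (28.8%), where 20.9% of all 11222 measured genes were, and lower were 5 (9.62%), where 19.1% of all genes were. In gene-rich cells 11 were higher (21.2%, against 22.4%) and 12 lower (23.1%, against 20.7%), shares near the background that are not a result about the members. Summed counts gave 6 higher (11.5%, against 25.2%) and 10 lower (19.2%, against 27.2%). Among genes with a mean of at least 20 CPM, 10 of 49 members were higher (20.4%, against 20.8%) and 6 lower (12.2%, against 22%). Called in both sets of cells were 6 higher (Elavl1, Elavl2, Elavl3, Hnrnpa0, Hnrnpr, Srsf12) and 5 lower (Hnrnpa1, Hnrnpab, Hnrnph2, Khdrbs2, Ptbp1).

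The Elavl genes, whose proteins stabilise U-rich mRNAs, were higher in 4 of 4 in all cells and in 3 of 4 in gene-rich cells. Of all genes 20.9% were higher in all and 22.4% in gene-rich cells. Elavl2 was found in 12 of 26 wild-type (0, 0 and 209 CPM) and 6 of 7 knockout D2 cells (0, 39.5 and 340 CPM), at 2.02 (1.05 in gene-rich cells, 0.73 in summed counts). Elavl3 had 0, 34.8 and 298 CPM in wild-type and 4.03, 109 and 251 CPM in knockout cells, at 1.12 (1.87), and Elavl4 0, 97.4 and 3109 CPM against 29.3, 184 and 1150 CPM, at 1.32 (0.80). Elavl4 stood at 0.59 without knockout cell 5, its highest, which was gene-poor. Elavl1 was at 1.04 (1.34), with 0, 0.586 and 149 CPM against 0, 30.8 and 151 CPM. It was 0.88, 0.66, 0.62, 0.97 and 0.88 without knockout cells 1 to 5 in turn, 1.60 without cell 6 and 1.64 without cell 7, and 0.55 against wild-type cells of 31 and 32 days only. Elavl3 was 0.93 without cell 1 and 0.90 without cell 6 or cell 7. The values of Elavl1 and Elavl3 thus lie near the threshold, and the call of Elavl4 is lost without cell 5.

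Hnrnpr, which has been tied to axonal transport of actin mRNA, was higher in knockout D2 cells. It was found in 24 of 26 wild-type (0, 4.87 and 470 CPM) and 7 of 7 knockout cells (9.15, 49.2 and 269 CPM), and all 7 lay above the wild-type median. The mean of log2(CPM + 1) was 6.04 ± 1.61 (SD, n = 7) against 3.22 ± 2.65 (n = 26), and the relative difference was 2.26 (2.14 in gene-rich cells, 1.41 to 2.84 over 18 alternatives). Hnrnpa0 was higher at 1.48 (2.53), with 0, 9.48 and 177 CPM against 0, 0.447 and 73.8 CPM, and stood at 0.84 without knockout cell 2. Srsf12, a splicing repressor among the SR proteins, was at 1.14 (1.21), with 0, 17.2 and 175 CPM against 0, 0 and 300 CPM, and at 0.94, 0.81 and 0.50 without knockout cells 2, 4 and 6 and 0.93 against wild-type cells of 31 and 32 days.

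Hnrnpa1 had the lowest relative difference of the members. It had reads in 14 of 26 wild-type D2 cells (0, 18.8 and 1351 CPM) and in 1 of 7 knockout D2 cells (14.3%, exact Clopper-Pearson 95% interval 0.361% to 57.9%), at 11.3 CPM. The relative difference was -3.58 (-3.52 in gene-rich cells), and it kept the call under 18 alternatives, from -4.07 to -1.93. Among wild-type cells Hnrnpa1 was lower in the D1 kind, and in D1 cells the knockout value was not called (0.67). Hnrnpab stood at -1.43 (-1.83), with 0, 9.39 and 310 CPM against 0, 39.5 and 1751 CPM. It was -2.22 without knockout cell 2 and -0.92 and -0.91 without cells 6 and 7, and -0.85 against wild-type cells of 31 and 32 days. Hnrnph2, the X-linked member of the H group, was at -1.33 (-1.69), with 0, 0 and 65.8 CPM against 0, 0 and 2675 CPM, and at -0.92 without knockout cell 3.

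Khdrbs2 and Ptbp1 were lower in knockout D2 cells. Khdrbs2 had 0, 1.69 and 538 CPM in the knockout, against 0, 83.7 and 996 CPM in wild-type cells, at -1.50 (-3.43 in gene-rich cells). It was -0.79 without knockout cell 1, -0.92 without cell 2 and -2.34 without cell 4. Ptbp1 had reads in 2 of 7 knockout (0, 0 and 77.8 CPM) and 10 of 26 wild-type cells (0, 0 and 244 CPM), at -1.45 (-2.76), or -2.28 without knockout cell 7 and -0.60 against wild-type cells of 31 and 32 days. Ptbp2 was higher in all cells at 1.41 and stood at 0.63 in gene-rich cells and 0.95 without knockout cell 6, with 0, 56.7 and 350 CPM against 0, 9.69 and 1551 CPM. Rbfox2 (0.26), Rbfox3 (-0.17), Nova1 (0.77) and Nova2 (-0.42) were not called, and Rbfox1 was called only in gene-rich cells (0.64 in all, 1.15 in gene-rich cells). Of the Celf genes Celf2 was called in all cells, at 1.99, with 310, 900 and 1413 CPM against 0, 565 and 2117 CPM, and it stood at 0.21 in gene-rich cells. Celf4 was called in gene-rich cells (0.97 in all, 1.02 in gene-rich cells). Celf1 (0.87), Celf3 (0.72), Celf5 (0.42), Celf6 (-0.67), Khdrbs1 (0.15), Khdrbs3 (0.46) and Ptbp3 (-0.22) were called in neither set of cells. Astrocyte markers were lower in 3 of 6 measured genes in all cells while in gene-rich cells 3 of 7 were higher and 1 lower (summed 150 to 2081 CPM in the knockout against 42.7 to 13297 CPM without it, Aldh1l1 at 0 in knockout cells). Of 11 measured microglia markers 2 were higher and 3 lower in all cells, and 3 and 1 of 12 in gene-rich cells (summed 39.6 to 3580 CPM in the knockout, 0.167 to 5971 CPM without it, none at 0). Interneuron markers were lower in 1 of 7 in all cells and higher in 3 of 6 in gene-rich cells (summed 0.654 to 323 CPM, against 0 to 841 CPM), with Vip at 0 in both groups. The part of these markers was not tested.

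Set side by side, the knockout values of D1 and D2 cells, which share no cells, put 8 of 52 members higher in both (15.4%, against 8.08% of 10203 genes measured in both) and 1 lower in both (1.92%, against 5.02%). The 8 were Celf2, Elavl2, Hnrnpdl, Hnrnpr, Hnrnpu, Ptbp2, Srsf10 and Srsf2, and the 1 was Hnrnpab. Members were also higher more often than all genes in each kind alone, so that the larger share higher in both is not a separate result. In gene-rich cells 3 were higher in both (5.77%, against 5.10%), namely Celf4, Elavl2 and Hnrnpr, and 3 lower in both (5.77%, against 5.54%), namely Hnrnpab, Hnrnph3 and Srsf6. Those shares are near the background and are not a result about the members. Elavl2 and Hnrnpr were higher, and Hnrnpab lower, in both kinds and both sets of cells. For Hnrnpr the knockout D1 cells had 24.9, 108 and 157 CPM against 0, 5.10 and 356 CPM in wild-type D1 cells, at 1.68 (1.3 in gene-rich cells, -0.44 in summed counts). Opposite calls were Khdrbs2 and Ptbp1, higher in D1 and lower in D2 cells (3.85%, against 3.92% of genes), and Elavl1, Hnrnpa0 and Srsf3, lower in D1 and higher in D2 cells (5.77%, against 4.78%). In gene-rich cells 4 members were higher in D1 and lower in D2 cells (7.69%, against 6.5%), namely Khdrbs2, Ptbp1, Hnrnpa2b1 and Hnrnph1, and 4 the other way (7.69%, against 6.90%), namely Elavl1, Hnrnpa0, Hnrnpa3 and Hnrnpc. The shares of opposite calls, in all and in gene-rich cells, are near the background too and are not a result about the members. The difference between the knockout values of D1 and D2 cells was not tested.

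**Figure D5:**
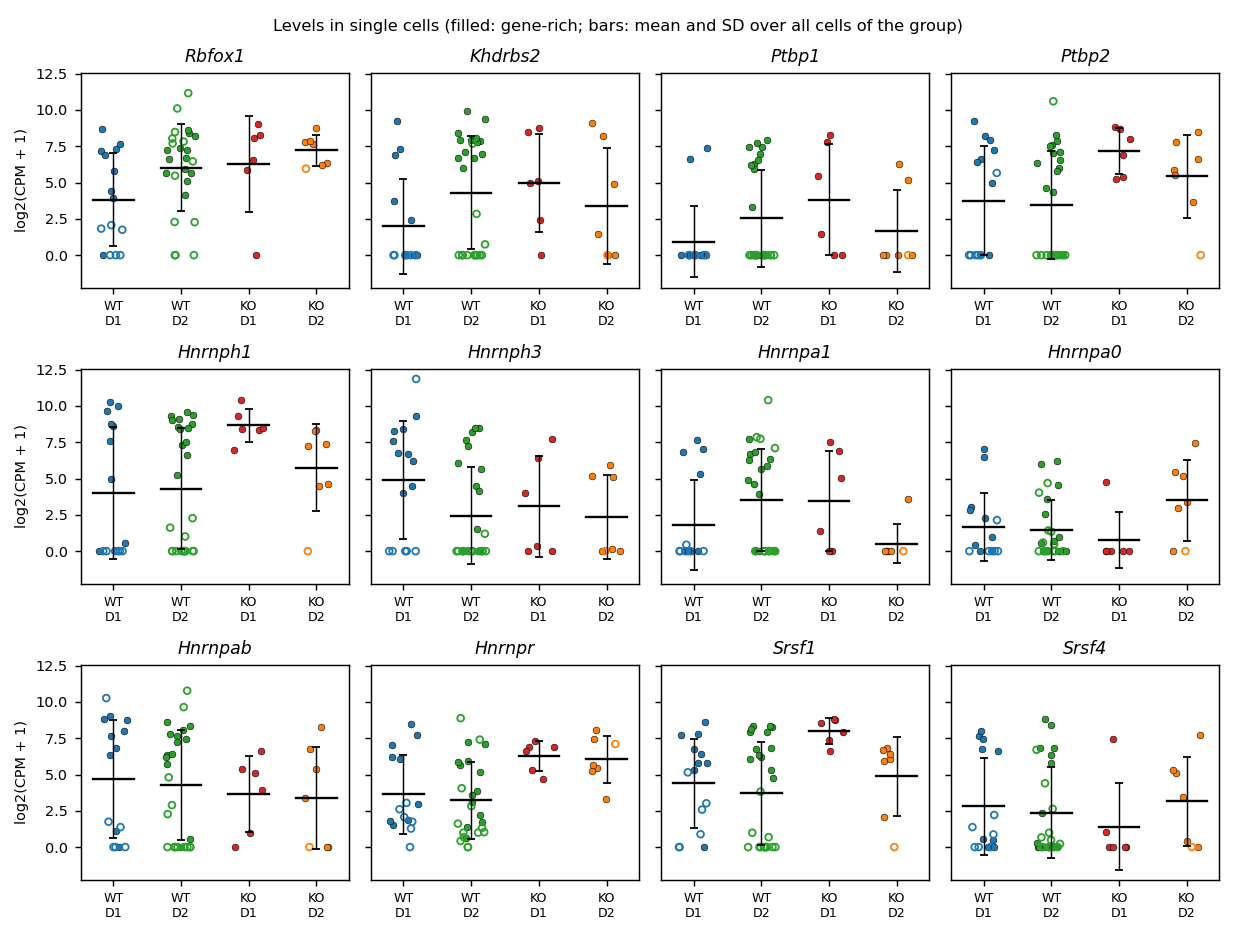
Level as log2(CPM + 1) in each cell for 12 of the genes described, by group (WT, wild-type; KO, knockout), with filled points for gene-rich cells, open points for the others, and bars for the mean and SD over all cells of the group. In all 6 knockout D1 cells Hnrnph1 and Srsf1 lie above the median of all wild-type D1 cells. Against the gene-rich wild-type D1 cells 4 of the 6 lie below the median for Hnrnph1. Hnrnpa1 has a read in 1 of 7 knockout D2 cells.

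Promoters are shown for the member whose groups did not overlap (Celf5), for the member higher in both kinds of knockout cell in both sets of cells with reads in all 13 of them (Hnrnpr), and for the H-group paralogs on opposite sides in D1 cells (Hnrnph1, Hnrnph3). They are the 250 bases before to 50 after a RefSeq start (GRCm38.p6), the first listed for each gene (of 5 for Celf5, 5 for Hnrnph1, 2 for Hnrnpr and 1 for Hnrnph3), 5′ to 3′ on the gene's strand, with matches on either strand in capitals of the GC box GGGCGG, the box CCAAT, the TATA box TATAAA, the ETS site CCGGAAG and the E box CACGTG. Celf5 lies at chr10:81482650-81482949 on the minus strand, Hnrnpr at chr4:136310692-136310991 on the plus strand, Hnrnph1 at chr11:50376740-50377039 on the plus strand and Hnrnph3 at chr10:63023800-63024099 on the minus strand.
Celf5: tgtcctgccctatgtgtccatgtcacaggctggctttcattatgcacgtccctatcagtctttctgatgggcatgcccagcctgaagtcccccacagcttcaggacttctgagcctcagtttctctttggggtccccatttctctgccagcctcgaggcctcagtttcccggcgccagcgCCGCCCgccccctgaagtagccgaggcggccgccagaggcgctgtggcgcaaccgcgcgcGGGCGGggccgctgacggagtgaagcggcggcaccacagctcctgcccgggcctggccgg
Hnrnpr: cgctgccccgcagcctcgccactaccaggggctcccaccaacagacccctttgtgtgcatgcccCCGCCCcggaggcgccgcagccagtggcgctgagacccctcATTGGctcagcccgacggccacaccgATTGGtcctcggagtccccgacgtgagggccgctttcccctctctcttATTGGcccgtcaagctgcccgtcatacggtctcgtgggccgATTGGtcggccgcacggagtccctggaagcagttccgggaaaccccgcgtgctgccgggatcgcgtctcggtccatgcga
Hnrnph1: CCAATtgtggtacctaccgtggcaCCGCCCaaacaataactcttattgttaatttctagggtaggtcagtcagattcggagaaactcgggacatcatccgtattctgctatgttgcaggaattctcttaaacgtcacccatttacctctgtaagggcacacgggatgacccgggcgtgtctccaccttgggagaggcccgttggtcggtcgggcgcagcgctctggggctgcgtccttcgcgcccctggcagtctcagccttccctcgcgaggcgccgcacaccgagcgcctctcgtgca
Hnrnph3: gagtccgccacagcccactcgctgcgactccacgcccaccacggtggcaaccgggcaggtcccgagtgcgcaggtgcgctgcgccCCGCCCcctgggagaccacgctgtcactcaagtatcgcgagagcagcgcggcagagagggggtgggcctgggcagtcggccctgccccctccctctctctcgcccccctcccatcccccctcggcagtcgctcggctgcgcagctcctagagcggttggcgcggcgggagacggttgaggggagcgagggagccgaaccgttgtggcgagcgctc
All 4 hold GGGCGG or its complement, and Hnrnph1 and Hnrnpr also hold CCAAT, Hnrnpr in several places. Of 45 members with a RefSeq promoter, taking the first listed, 68.9% hold GGGCGG, against 35.6% of all 32817 listed promoters of this length, alternative starts included, and 46.7% against 37.4% hold CCAAT. The TATA box was in 15.6% against 13.6%, the ETS site in 13.3% against 8.86% and the E box in 11.1% against 7.15%. The median number of CG dinucleotides was 27 in the members' and 7 in all promoters. No motif holds another, and a match is a description, not a site. Hnrnph1 and Hnrnph3, which stood on opposite sides in D1 cells, both hold GGGCGG.

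Knockout D1 and D2 cells were compared last. They share their cells with the comparisons above, so the values are given side by side and not as further support. Higher in D1 cells were 21 of 52 members (40.4%, against 26.5% of 10990 genes) and lower were 11 (21.2%, against 26.8%). In gene-rich cells 14 were higher (26.9%, against 27.0%) and 10 lower (19.2%, against 26.7%), and in summed counts 10 were higher (19.2%, against 29.7%) and 7 lower (13.5%, against 30.2%). The excess on the higher side in all cells is near the background in gene-rich cells. Here the gene-rich cells are all cells except D2 cell 5. Called in both sets of cells, that is also without that cell, were 12 higher and 10 lower. In no member did all D1 cells lie above or below all D2 cells, as they did for 12 (0.109%) and 1 (0.00910%) of all genes.

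The SR genes stood out by count in all cells only, with 8 of 11 higher and 2 lower, against 26.5% and 26.8% of all genes. In gene-rich cells 3 were higher and 2 lower, against 27.0% and 26.7%. The share higher there is near the background and is not a result about the family. Srsf5 had 232, 400 and 1396 CPM in knockout D1 and 0, 13.7 and 638 CPM in knockout D2 cells, and all 6 D1 cells lay above the D2 median. That is a relative difference of 3.67 (3.11 in gene-rich cells), where the wild-type value was 2.33 in all and -0.57 in gene-rich cells. Srsf1 had 96.0, 311 and 448 CPM in D1 and 0, 66.8 and 114 CPM in D2 cells, at 2.84 (2.30), and 5 of 6 D1 cells exceeded the highest D2 cell. On the lower side Srsf4 stood at -2.02 (-2.28), with -3.10 without D1 cell 2 and -1.21 without D2 cell 6, and Srsf3, a small SR protein that shuttles to the cytosol, at -1.69 (-1.33), with -0.71 without D1 cell 3. Srsf3 had 0, 66.6 and 472 CPM in D1 and 4.41, 134 and 437 CPM in D2 cells.

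Among Hnrnp genes 6 of 20 were higher and 4 lower, and 7 and 4 in gene-rich cells. Over all genes 26.5% were higher and 26.8% lower, and 27.0% and 26.7% in gene-rich cells. The Hnrnp counts are near that background and are not a result about the family. Hnrnph1 stood at 2.63 (1.94 in gene-rich cells), with 127, 354 and 1361 CPM in D1 and 0, 148 and 318 CPM in D2 cells, and 5 of 6 D1 cells exceeded the highest D2 cell. Hnrnpll was at 3.22 (2.83), with 37.3, 158 and 1238 CPM against 0, 17.9 and 498 CPM, and Hnrnpa1 at 2.67 (2.85), with 0, 17 and 186 CPM against 0, 0 and 11.3 CPM. Hnrnpa0 was at -3.00 (-3.31), found in 1 of 6 D1 neurons and 5 of 7 D2 neurons, and Hnrnpa3 at -2.33 (-2.71), with 0, 3.02 and 25.3 CPM against 0.218, 34.2 and 122 CPM. Hnrnpc, which binds uridine tracts and keeps cryptic exons out, was at -1.65 (-2.36). It was -0.79 without D1 cell 4, -0.92 without D1 cell 5 and -2.52 without D1 cell 6, with 0, 51.1 and 401 CPM in D1 and 0, 73.8 and 348 CPM in D2 cells. The groups overlapped in all 6 of these genes.

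Of the neuronal families, Celf1, Celf3, Celf5, Ptbp1, Ptbp2, Khdrbs2 and Nova2 were higher in knockout D1 cells, and Elavl1, Elavl3, Elavl4, Rbfox1 and Nova1 lower. Celf3 stood at 1.95 (1.41 in gene-rich cells) and 1.25 without D2 cell 6. Celf1 stood at 1.74 (1.10) and 0.78 without D2 cell 2, and Celf5 at 1.52 (0.92). The values in brackets are those without D2 cell 5. Celf5 was thus higher in D1 cells in the knockout and lower in D1 cells in the wild-type. Ptbp1 stood at 1.90 (1.89), with 1.14 without D1 cell 2 and 0.95 without D1 cell 5, against -1.46 in wild-type cells. Ptbp2 was at 1.47 (0.83). Rbfox1 stood at -1.22 (-1.17), with 0, 180 and 525 CPM in D1 and 61.2, 197 and 437 CPM in D2 cells, and at -0.13 without D1 cell 5. Elavl1 stood at -1.54 (-1.41), with -0.95 without D1 cell 4 and -2.46 without D1 cell 3. Elavl4 was at -1.59 (-0.88), with -0.38 without D1 cell 6. Elavl3 was at -1.09 (-1.42), with -0.98, -0.79 and -0.69 without D1 cells 1, 2 and 5. Without D2 cells 1, 6 and 7 Elavl3 was -0.92, -0.87 and -0.84. When cells were left out in turn, Khdrbs2 (1.3 in all cells) ranged from 0.43 without D1 cell 5 to 2.42 without D1 cell 2. Nova1 (-1.09) ranged from -1.99 without D1 cell 6 to -0.19 without D2 cell 7. Nova2 (1.06) ranged from 0.48 without D2 cell 1 to 1.77 without D1 cell 3. Each of these 3 calls is lost when any of several single cells is left out. Celf2 (0.36), Celf4 (0.07), Celf6 (0.02), Elavl2 (0.85), Khdrbs1 (0.27), Khdrbs3 (-0.86), Ptbp3 (0.16), Rbfox2 (0.70) and Rbfox3 (-0.20) were called in neither set of cells. Markers of interneurons (3 of 4 measured) and oligodendrocytes (3 of 4) and 5 of 12 microglia markers were lower in knockout D1 cells, where 26.8% of all genes were. In gene-rich cells 3 of 4 interneuron, 2 of 4 oligodendrocyte and 3 of 12 microglia markers were lower, against 26.7% of all genes. There 1 oligodendrocyte and 1 microglia marker were higher. Astrocyte markers were lower in 3 and higher in 1 of 6 (1 and 1 of 6 in gene-rich cells), with summed levels of 285 to 1452 CPM in D1 and 150 to 2081 CPM in D2 cells, Gfap and Aldh1l1 being at 0 in the first and Aldh1l1 in the second. For interneurons, oligodendrocytes and microglia, summed levels in D1 and D2 cells were 0 to 135 and 0.654 to 323 CPM, 0 to 2433 and 99.4 to 11094 CPM, and 0.453 to 2487 and 39.6 to 3580 CPM in that order. Of these lists, at 0 in D1 cells were Gad2, Slc32a1, Pvalb, Vip, Lhx6, Mog, Mag, Olig1 and Olig2, and in D2 cells Vip and Mog. Their part in the members' differences was not tested.

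Other splicing genes were counted from lists of single named genes, not picked by a rule on symbols as the members were. Of 40 other sequence-specific regulators of splicing, 17 of 36 measured were higher and 3 lower in knockout than wild-type D1 cells, and 8 and 5 of 37 in gene-rich cells. Of 33 genes of the core spliceosome, 12 were higher and 8 lower, and 8 and 10 in gene-rich cells. The 8 kinases of SR proteins, which set SR protein phosphorylation, had 7 higher and 1 lower in all cells and 2 higher and 1 lower in gene-rich cells. Of all genes 27.9% were higher and 25% lower in all cells, and 25.2% and 25.7% in gene-rich cells. In D2 cells the counts in the same order were 16 and 5 of 37, 9 and 4 of 33, and 2 and 1 of 8 in all cells. In gene-rich D2 cells they were 7 and 8, 11 and 4, and 0 and 5. Of all genes 20.9% were higher and 19.1% lower in all cells, and 22.4% and 20.7% in gene-rich cells. In wild-type cells 4 and 3 of 37, 6 and 3 of 33 and 0 and 1 of 8 were higher and lower in D1 than D2 cells. In gene-rich wild-type cells the counts were 5 and 6 of 37, 11 and 8 of 33 and 0 and 5 of 8. The shares over all genes were 12% and 10.2% in all cells, and 20.6% and 21.1% in gene-rich cells. Between the knockout groups 9 and 11 of 38, 9 and 6 of 33 and 5 and 0 of 8 were higher and lower in D1 cells, against 26.5% and 26.8% of all genes. In gene-rich cells they were 9 and 10 of 37, 9 and 7 of 33 and 3 and 0 of 8, against 27.0% and 26.7%.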

How the data were processed

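The cytosol of single neurons was drawn into a patch pipette and made into Nextera XT libraries, per the labels' protocols. Per the submitters' processing notes, the tools were Trimmomatic, STAR and featureCounts, with GRCm38. Their roles, versions, settings and use of strand: not given in the sources used here. As deposited by the authors, the counts are whole reads for each gene, listed by symbol and again by Ensembl identifier, and members had the same counts in both (0 cells differed). The deposited normalized signal table of 14067 genes holds these counts multiplied by 1 factor per cell (0.373 to 51.5), and served as an alternative. Each table holds 2 value columns that match no sample label, which were not used.

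Counts were scaled to CPM by each cell's total. Groups were compared by the mean over cells of log2(CPM + 1), over genes with a mean of at least 1 CPM and reads in 10% of the cells compared, after subtracting the median difference over all such genes. A relative difference of 1 log2 unit was the call. No animal is named, so no p-value was computed. Gene-rich cells are those with reads of at least 4000 genes. Members and lists were chosen with earlier results of these data known. Relative differences were given for all genes of the neuronal families, for up to 5 Hnrnp or Srsf genes per direction and comparison with the largest relative difference of at least 1 in all and, with the same sign, in gene-rich cells, and for the 3 genes highest per length in wild-type cells. A few further Hnrnp and Srsf genes were named after their values were seen.

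Intervals are exact (Clopper-Pearson, 95%), and floors are 3 counts. Alternatives were TMM factors, the deposited normalized values, totals without mitochondrial and 18S genes, thinning to 250000 reads, an offset of 10 CPM, other filters, no centring, summed counts, gene-rich cells and leaving out cells or ages. Only knockout cells were left out singly. Between the wild-type kinds whole ages were left out. The highest Spearman correlation between cells was 0.74 (median 0.36), so no library appeared deposited more than once. Positions, exon lengths and shared 50-base stretches came from GENCODE vM21 (GRCm38; 52 of 52 members matched), and promoters from RefSeq (45 of 52 matched). Python 3.11.15, numpy 2.4.6, pandas 2.3.3, scipy 1.17.1, matplotlib 3.10.9 and edgeR 4.0.16 in R 4.3.3 were used, and the procedure was tested on simulated data, where some unchanged genes also passed 1 log2 unit, so that a call states a size only.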

Additional observations from a re-analysis of the deposited data

Results flagged for a closer look

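Among 82 checks of single members, and of the number of members found, in the knockout groups (6 D1 and 7 D2 cells), 14 found a cell far from the others of its group. The cut-off is passed in about 1 in 20 groups when values are normally distributed. That rate does not apply here, since many values are those of cells without a read. A gene read in only 1 cell of a group gives a gap of 1 by construction. Members of a cell are also not independent. The value given is the gap to the nearest other cell divided by the range of the group, on the log2(CPM + 1) scale.

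In knockout D2 cells the number of members with a read stood apart at 0.933, since cell 5 held 17 members where the others held 45 to 47. The same cell, the only gene-poor one of the knockout groups, had no read of Celf5 (0.752), Hnrnpc (0.63), Hnrnpdl (0.745) or Rbfox3 (0.781), and each of these was found in the other 6 cells. Hnrnpa1 (1) was read only in cell 2, and Hnrnpa2b1 (0.597) was lowest in cell 6, at 3.75 where the others lay between 6.84 and 8.93.

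In knockout D1 cells, cell 6 had no read of Elavl2 (0.794) and Elavl4 (0.741), whose other values began at 7.02 and 6.08. Cell 5 had no read of Rbfox1 (0.65), was the only one with reads of Hnrnpa0 (1, at 4.73) and was highest for Hnrnpdl (0.652, at 10.2). Cell 2 had no read of Srsf7 (0.876) and was highest for Srsf4 (0.864, at 7.44, the others at most 1.02).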

How the results depend on the processing

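Of 73 calls of named members, 21 kept a relative difference of at least 1 under every alternative run: 10 of 23 for the knockout in D1 cells, 2 of 14 for it in D2 cells, 2 of 14 between wild-type kinds and 7 of 22 between knockout kinds. Single wild-type cells were never left out, so how far a call rests on a single wild-type cell was not examined. In the wild-type comparison the members' median relative difference (0.042) changed sign in gene-rich cells (-0.058), with an offset of 10 CPM (-0.037), with no filter (-0.045), without centring (-0.10), after thinning (-0.016) and without the cells of 30 (-0.011) or 31 days (-0.14). An offset of 10 CPM left 3 higher and 4 lower, and 4 were higher without the cells of 35 days. Over ages left out in turn 4 to 9 were higher and 9 to 13 lower, with medians of -0.14 to 0.17. Calls with the opposite sign in gene-rich cells were Celf1 (-0.44), Celf3 (-0.35), Srsf5 (-0.57) and Hnrnpk (0.42), and in summed counts Celf3 (-0.19), Hnrnpk (0.064) and Khdrbs1 (0.21).

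For the knockout in D1 cells 3 members were lower and the median was 1.89 without centring, which adds the shift of all genes (0.98), and summed counts gave 12 higher, a median of 0.36 and opposite signs for Khdrbs1 (-0.96), Hnrnpk (-0.41) and Hnrnpr (-0.44). Leaving out cells gave 25 to 29 higher, 7 to 9 lower and medians of 0.76 to 1.24. For the knockout in D2 cells gene-rich cells gave 12 lower, an offset of 10 CPM 5 higher and 1 lower, no filter 27 higher, no centring 30 higher and 1 lower, and summed counts 6 higher, 10 lower and a median of -0.11. Opposite signs were given by gene-rich cells for Hnrnpdl (-0.31), Hnrnpu (-0.19) and Srsf3 (-0.004), and by summed counts for Hnrnpdl (-0.53), Srsf10 (-0.14) and Srsf3 (-0.31). Leaving out cells gave 14 to 19 higher, 4 to 7 lower and medians of 0.39 to 0.78. Between knockout kinds an offset of 10 CPM gave 10 higher and 3 lower, and summed counts 10 higher, 7 lower and opposite signs for Rbfox1 (0.22), Srsf2 (-0.46) and Srsf9 (-0.15). Leaving out cells gave 14 to 22 higher, 7 (without D1 cell 5) to 13 (without D1 cell 6) lower, and medians of 0.27 to 0.67. The cause of these changes was not tested. The setting with a mean of at least 20 CPM was chosen after seeing the data.

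No paired analysis was possible because cell numbers within a group are only names and no test was made, so that there is no fit with a replicate block. A cell without a read of a gene is not shown to lack its transcript at these depths.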

Other observations

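By label, 1 further D1 neuron of a knockout mouse failed quality control and entered no comparison. It held 950010 counts, reads of 995 genes and reads of 7 of the 52 members. The members took 0.134% of its counts, and it had 0 reads of Fmr1.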
